A study of Saccharomyces cerevisiae with 24 samples.

Results

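All 24 libraries of the series enter this comparison: the 16 libraries of both deletion strains, 8 of ∆RPL22A and 8 of ∆RPL22B, were set against the 8 wild-type libraries, with the RNA pool as a factor. RPL22A and RPL22B are paralogs that both encode Rpl22, a protein of the large ribosomal subunit. ∆RPL22A cells lack RPL22A, ∆RPL22B cells lack RPL22B, and the wild-type strain is the reference. Each strain was sequenced in 4 pools, namely input RNA, monosomes, light polysomes (PolysomeLow in the sample titles) and heavy polysomes (PolysomeHigh). In the names of the count columns, low stands for monosomes, med for light polysomes and high for heavy polysomes. The design text calls the 2 libraries of each of the 12 combinations of strain and pool biological duplicates. All strains were Saccharomyces cerevisiae in log phase (OD 0.6 to 0.8), all received cycloheximide, a drug that stalls elongating ribosomes, and no label names a stress treatment, a mating type, a selectable marker or the number of clones per strain. The comparison asks which genes moved alike in both deletions, that is, which differences they share against this wild type.

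Haploid yeast cells are of mating type a or α, set by the genes at the MAT locus. In α cells the protein α1 works with the general factor Mcm1 to switch on α-specific genes, and α2 works with Mcm1 to repress a-specific genes. The a-specific and α-specific genes encode the pheromones, pheromone receptors and adhesion proteins that let cells of opposite type find each other, and the transcription factor Ste12 drives a further set of genes in both types when the pheromone pathway signals. Laboratory strain sets often pair an a parent that lacks MET17 with an α parent that lacks LYS2, both of them used as nutritional markers.

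In the deletion strains all 5 α-specific genes rose and all 7 a-specific genes fell, and the markers MET17 and LYS2 differed as widely, MET17 higher and LYS2 lower. The short upstream sequences below, from the RefSeq R64 genome (sacCer3, the build named in the submitters' processing notes), are shown because all 7 a-specific genes carry the Mcm1 core and the α2 site, and 4 of the 5 α-specific genes carry the P box, the Q element or both. Windows of 500 bases before the annotated start were read for 6021 protein-coding genes, and each motif was searched on both strands. The motifs were taken from textbook knowledge with these promoters in view, so a match is a description and not evidence of binding.

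The Mcm1 core TTNCCNNNNNNGGNAA was found upstream of 7 of 7 a-specific genes and of 113 of all 6021 genes (1.88%). The α2 recognition site TTACATG was found in 7 of 7 and in 376 of all (6.24%), and both motifs together in 9 of all windows (0.149%). Besides the 7 a-specific genes these were GYP8, whose window lies in the region it shares with STE2 on the other strand, and FKS3. In each line the letters fixed by the Mcm1 core and every copy of the α2 site are in capitals, read so that the core precedes the site.
MFA1: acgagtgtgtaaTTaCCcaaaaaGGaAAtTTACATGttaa
MFA2: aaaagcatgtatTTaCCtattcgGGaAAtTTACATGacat
STE2: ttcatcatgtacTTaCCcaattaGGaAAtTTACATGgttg
STE6: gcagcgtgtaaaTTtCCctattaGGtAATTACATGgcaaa
BAR1: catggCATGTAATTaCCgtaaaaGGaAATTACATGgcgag
AGA2: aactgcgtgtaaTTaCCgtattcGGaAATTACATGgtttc
ASG7: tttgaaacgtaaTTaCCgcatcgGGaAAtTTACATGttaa

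The site followed the core with no base between them in 3 of the genes (STE6, BAR1 and AGA2) and with 1 base between them in the other 4. The nearest window to a gene was that of ASG7, which ended 122 bases before the start (chrX:101901-101940, minus strand), and the farthest was that of AGA2, which ended 264 bases before it (chrVII:437097-437136, plus strand). The windows of MFA1 (chrIV:1384937-1384976, plus), MFA2 (chrXIV:352158-352197, plus), STE2 (chrVI:82347-82386, minus), STE6 (chrXI:46473-46512, plus) and BAR1 (chrIX:322073-322112, plus) lay between these. BAR1 was the gene with a second copy of the α2 site on the other strand of its window.

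None of the 5 α-specific genes had the Mcm1 core (0 of 5). The sequence CCTAATTAG, part of the P box bound by Mcm1 with α1, was found in 3 of 5 (MF(ALPHA)1, STE3 and SAG1) and in 27 of all 6021 windows (0.448%). The Q element CAATGNCA, where α1 contacts DNA, was found in 3 of 5 (MF(ALPHA)2, STE3 and SAG1) and in 456 of all windows (7.57%). In the following lines the P box sequence and the Q element are in capitals. In SAG1 the P box sequence and its reverse complement overlap, and the Q element of SAG1 lies outside the window shown.
MF(ALPHA)1: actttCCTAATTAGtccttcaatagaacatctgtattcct
MF(ALPHA)2: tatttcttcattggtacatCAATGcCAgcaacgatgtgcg
STE3: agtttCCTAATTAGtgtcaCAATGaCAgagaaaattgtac
SAG1: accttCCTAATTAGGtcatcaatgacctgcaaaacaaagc

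These windows lie at chrXVI:193281-193320 (plus strand) for MF(ALPHA)1, chrVII:345433-345472 (minus strand) for MF(ALPHA)2, chrXI:114941-114980 (plus strand) for STE3 and chrX:445193-445232 (plus strand) for SAG1. AFB1 carried neither of these motifs in its window.

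The libraries held 2435632 to 10947937 counts, of which 62.5% to 97.1% were on the 7 rows of the ribosomal DNA, and 314212 to 1950344 counts lay outside it. Levels are given as CPM, the usual abundance unit relative to all counts of the library, scaled by TMM. Duplicates differed by more than sampling noise in every group (chi-square divided by its degrees of freedom, 1.83 to 34.3, outside the ribosomal DNA), and each library was kept as 1 sample. The 4 libraries with the smallest gap between their correlation with their duplicate and their highest correlation with another pool of their strain (log2 CPM) were ∆RPL22A input replicate 1, ∆RPL22A light polysome replicate 2, ∆RPL22B light polysome replicate 1 and wild-type heavy polysome replicate 2. That highest correlation was 0.916 to 0.947, against 0.931 to 0.963 with their duplicate. Without these 4 the number of called genes was 58, against 56 with them, and 44 of the genes were in both counts. RPL22B, on chromosome VI, had 6354 counts in the ∆RPL22A libraries, 0 in the ∆RPL22B libraries and 1329 in the wild-type libraries. RPL22A had 3 counts in ∆RPL22A, 40 in ∆RPL22B and 25 in wild type, too few for a test, so its row says little on the ∆RPL22A label.

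Of 5380 genes tested, 56 (1.04%) passed an adjusted p of 0.05 in edgeR's quasi-likelihood test of both deletions against wild type over all pools, 29 higher (0.539%) and 27 lower (0.502%). A model with strain in place of deletion called 1263 genes (23.5%) for ∆RPL22A against wild type, 641 higher (11.9%) and 622 lower (11.6%). It called 31 (0.576%) for ∆RPL22B, and 1416 genes (26.3%) differed between the deletions. In the joint model, differences between the deletions enter the residual spread, so it favours genes that move alike. Its count of 56 therefore cannot be set directly against the counts for each deletion. A gene was counted as shared when it passed jointly and in each deletion on its own, in the same direction, with fold changes less than 1 log2 unit apart. This held for 26 genes (0.483%), 15 higher (0.279%) and 11 lower (0.204%). Leaving out 1 library at a time gave 42 to 97 jointly called genes, 97 without ∆RPL22B light polysome replicate 1, and 24 to 27 shared genes. Both deletions were compared with the same 8 wild-type libraries, so their fold changes are not independent of each other. Of the 26 shared genes, 16 are on the mating-type and pheromone lists, 1 is on the marker list and 9 are on neither. Since mating-type genes and markers separated both deletion strains from wild type, the loss of a paralog and the strain background cannot be told apart in any change that the deletions share.

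**Figure D1:**
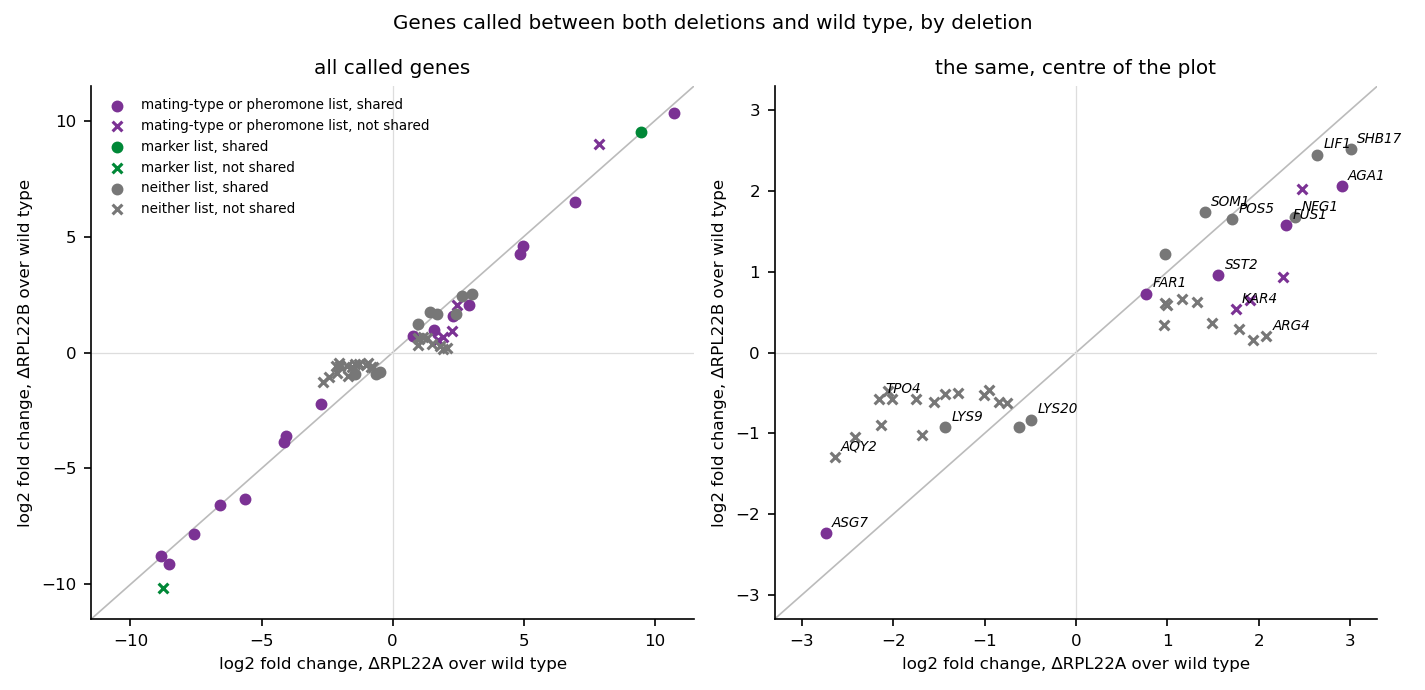
Log2 fold change of the 56 called genes in ∆RPL22A (x axis) and in ∆RPL22B (y axis), each over wild type, with the centre of the left panel enlarged on the right. Circles are the 26 shared genes and crosses the other 30, colours give the gene lists, and the grey diagonal marks equal change. The mating-type genes lie near the diagonal at both ends, and most crosses lie nearer to 0 on the ∆RPL22B axis.

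The pheromones came first among the α-specific genes. MF(ALPHA)1 (YPL187W), the main α-factor gene, had CPM values of 229, 515 and 727 (lowest, median and highest of 8 libraries) in ∆RPL22A and 132, 451 and 741 in ∆RPL22B, against 0, 0.16 and 1.41 in wild type. Every deletion library lay above every wild-type library. Such a lack of overlap, in either direction, was seen in 18 of all 5380 genes tested (0.335%). The log2 fold change was 10.52 ± 0.41 (SE, n = 16 and 8 libraries, adjusted p = 2.15e-20). MF(ALPHA)2 (YGL089C), the second α-factor gene, had CPM values of 57.6, 124 and 212 in ∆RPL22A and 78.1, 280 and 560 in ∆RPL22B, against 0, 0.432 and 1.27 in wild type. It rose in both deletions, by 7.88 ± 0.37 in ∆RPL22A and 9.0 ± 0.38 in ∆RPL22B on the log2 scale, and the difference of -1.12 between the deletions (adjusted p = 0.000394) kept it out of the shared count.

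STE3 (YKL178C), the receptor for a-factor, had CPM values of 9.92, 14.1 and 19.9 in ∆RPL22A and 5.75, 12 and 15.1 in ∆RPL22B, against 0, 0 and 0.289 in wild type. Its log2 fold change was 6.76 ± 0.34 (adjusted p = 1.02e-16), and the wild-type libraries held 5 of its counts in all. SAG1 (YJR004C), the α-agglutinin that binds cells of the other type, averaged 44.3 ± 17.7 CPM in ∆RPL22A and 32.5 ± 6.96 in ∆RPL22B, against 1.31 ± 1.08 in wild type (SD, n = 8 each). AFB1 (YLR040C), the α-specific a-factor barrier protein, averaged 21.4 ± 14.5 and 13.8 ± 9.01 CPM in ∆RPL22A and ∆RPL22B, against 0.627 ± 0.422 in wild type. Their log2 fold changes were 4.85 ± 0.28 and 4.59 ± 0.29, and neither overlapped between the deletion and the wild-type libraries. Summed over the 5 α-specific genes, the lowest, median and highest CPM of a library were 402, 722 and 963 in ∆RPL22A and 272, 866 and 1173 in ∆RPL22B, against 0.843, 2.67 and 4.52 in wild type.

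The a-specific genes were the mirror image. MFA2 (YNL145W), an a-factor gene, had 8 counts in the ∆RPL22A libraries and 4 in the ∆RPL22B libraries, against 2683 in wild type, where its CPM was 22.4 at the lowest, 76.2 at the median and 117 at the highest. Its log2 fold change was -8.77 ± 0.30 (adjusted p = 1.1e-21), and no deletion library reached the lowest wild-type value. MFA1 (YDR461W), the other a-factor gene, had 4, 3 and 786 counts in ∆RPL22A, ∆RPL22B and wild type, and a log2 fold change of -7.70 ± 0.27. STE2 (YFL026W), the receptor for α-factor, averaged 0.572 ± 0.305 CPM in ∆RPL22A and 0.41 ± 0.265 in ∆RPL22B, against 32.8 ± 16.6 in wild type (SD, n = 8 each), a log2 fold change of -5.92 ± 0.22.

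STE6 (YKL209C), the exporter of a-factor, fell by 3.99 ± 0.23 on the log2 scale. BAR1 (YIL015W), the secreted protease that degrades α-factor, fell by 3.83 ± 0.22. AGA2 (YGL032C), the binding subunit of a-agglutinin, had 2, 2 and 209 counts in ∆RPL22A, ∆RPL22B and wild type, a log2 fold change of -6.55 ± 0.37. In these genes too every deletion library lay below every wild-type library. ASG7 (YJL170C), which acts on signalling after mating, had 8, 10 and 57 counts and was the a-specific gene whose groups overlapped, at -2.49 ± 0.43 (adjusted p = 0.000341). Summed over the 7 a-specific genes, the lowest, median and highest CPM were 1.33, 1.99 and 3.17 in ∆RPL22A and 0.854, 1.94 and 4.13 in ∆RPL22B, against 59.4, 142 and 233 in wild type.

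HMRA1 (YCR097W), the a1 gene of the silent cassette HMR on chromosome III, had 0 counts in the 16 deletion libraries and 374 in the 8 wild-type libraries, at least 318-fold lower against a floor of 3 counts over the deletion libraries. The R64 reference carries the α genes at MAT, so that reads of an a1 gene at MAT would match this row as well, and their origin cannot be told apart by count. MATALPHA2, which encodes α2, had 7, 4 and 1 counts in ∆RPL22A, ∆RPL22B and wild type, too few for a test. The other 4 members of the cassette list were not analysed here. None of the 10 haploid or silencing regulators passed the test (0 of 10, log2 fold changes of -0.49 to 0.32), among them MCM1 at -0.06 ± 0.25 and SIR3 at -0.15 ± 0.24.

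**Figure D2:**
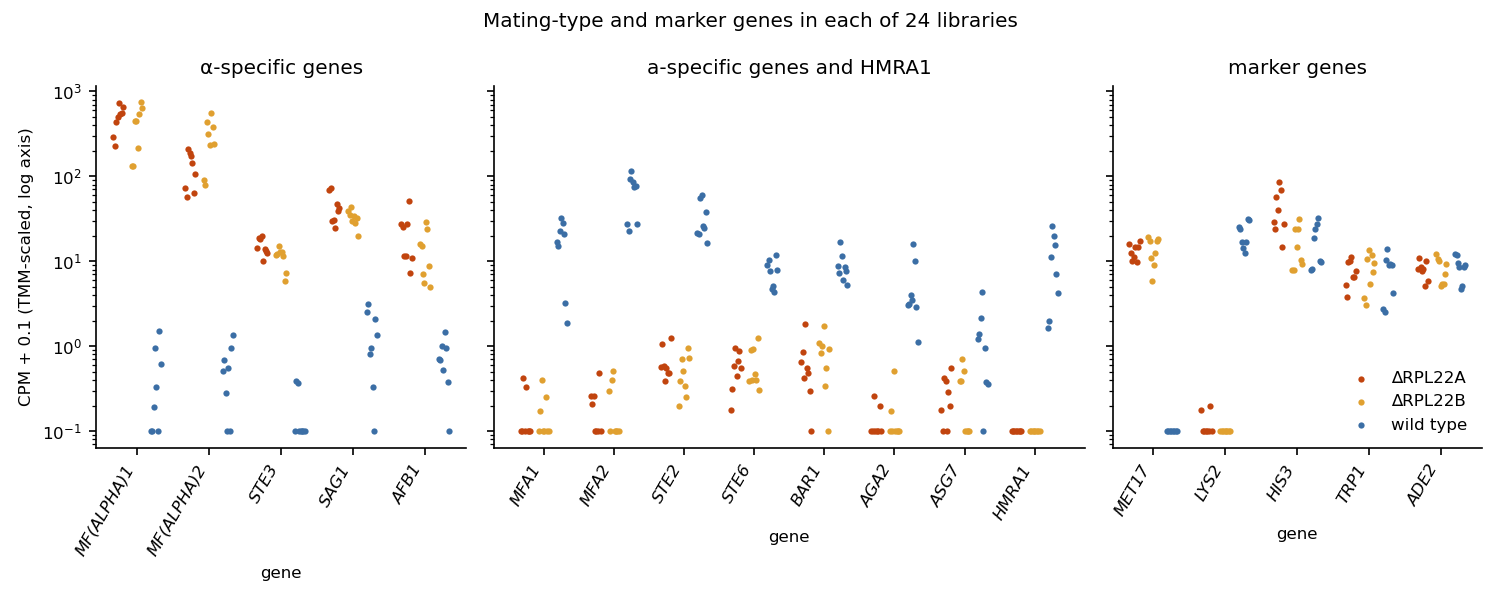
Level of each α-specific gene, a-specific gene (with HMRA1) and marker gene in each of the 24 libraries, as CPM plus 0.1 on a log axis. Each point is 1 library, 8 per strain, with ∆RPL22A and ∆RPL22B to the left of wild type. Except for ASG7, the deletion and wild-type points of the mating-type genes, of MET17 and of LYS2 do not overlap.

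Beside the mating-type genes, 2 of 5 tested marker genes changed. MET17 (YLR303W), the sulfhydrylase that makes homocysteine, had 824 counts in ∆RPL22A and 788 in ∆RPL22B, against 0 in wild type, at least 211-fold higher over both deletions against a floor of 3 counts over the wild-type libraries. Its CPM was 9.82, 13.6 and 17.1 (lowest, median and highest) in ∆RPL22A and 5.79, 14.8 and 19.3 in ∆RPL22B. LYS2 (YBR115C), the α-aminoadipate reductase of lysine synthesis, had 2 counts in ∆RPL22A and 0 in ∆RPL22B, against 955 in wild type, where its CPM was 12.4, 20.4 and 31.1. The ratio of its level in wild type to that in the deletions was 1220, with a 95% counting interval of 336 to 10100 that covers counting error only. LYS2 was called in both deletions but not counted as shared, since its fitted log2 fold changes of -8.75 in ∆RPL22A and -10.16 in ∆RPL22B, which depend on the prior count, were more than 1 apart.

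HIS3 (YOR202W), also used as a marker, did not pass jointly (0.81 ± 0.27, adjusted p = 0.169): it was 1.35 ± 0.15 higher in ∆RPL22A, against -0.08 ± 0.16 in ∆RPL22B. TRP1 was at 0.14 ± 0.17 and ADE2 at -0.08 ± 0.15, and neither passed. None of 26 tested genes next to RPL22A, RPL22B, MET17, LYS2, HIS3, LEU2, URA3 and HMRA1, taken as the nearest 2 genes on each side, passed the joint test.

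Within the rest of the lysine pathway, LYS9 and LYS20 fell in both deletions. LYS9 (YNR050C), the saccharopine dehydrogenase that follows Lys2 in the pathway, had CPM values of 10.4, 12.8 and 16.6 in ∆RPL22A and 11.2, 16.2 and 35.6 in ∆RPL22B, against 24.5, 31.7 and 68.6 in wild type. Its log2 fold change was -1.16 ± 0.15 (adjusted p = 1.13e-06), and it lay lower in both deletions than in wild type within each pool (-1.23 in input, -1.11 in monosomes, -1.03 in light and -1.36 in heavy polysomes, all called). In heavy polysomes its duplicates were at 16.1 and 16.6 CPM in ∆RPL22A and at 35.6 and 33.9 in ∆RPL22B, against 68.6 and 54.0 in wild type.

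LYS20 (YDL182W), a homocitrate synthase that opens the pathway, averaged 26.2 ± 6.27 CPM in ∆RPL22A and 21.2 ± 5.80 in ∆RPL22B, against 37.1 ± 6.72 in wild type (SD, n = 8 each). It fell by 0.65 ± 0.14 on the log2 scale (adjusted p = 0.00798). Of the 11 genes of the list, 3 fell (LYS2, LYS9 and LYS20), where 0.502% of all genes tested were lower. None rose (0 of 11), and the median log2 fold change was -0.37, against 0.01 over all genes tested. In ∆RPL22A 6 of the 11 were below 0 and in ∆RPL22B 10. Above 0 were 5 and 1 of the 11, against 2537 and 2848 of all 5380 genes tested. The count in ∆RPL22A was thus near the share over all genes. Of the members that did not pass, LYS4, an aconitase family enzyme, was at -0.45 ± 0.14 (adjusted p = 0.136) and LYS12 at -0.37 ± 0.13, while LYS1, the last step, was at 0.00 ± 0.08.

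Lys14, the activator of the lysine genes, responds to the intermediate that Lys2 makes, and its own gene LYS14 was at 0.04 ± 0.18. The element TCCNNNGGA to which it binds, which reads alike on both strands, was found upstream of 7 of 11 lysine genes and of 358 of all 6021 genes (5.95%). The window of LYS9 holds 2 copies, in capitals here, at chrXIV:715538-715618 on the minus strand, which is also the strand of the gene, ending 150 bases before its start.
LYS9: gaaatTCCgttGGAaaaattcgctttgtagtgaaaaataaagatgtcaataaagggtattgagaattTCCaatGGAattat

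LYS20, which fell, has no such element in its window, and LYS1, which has one, did not pass. On the list of sulfate assimilation and methionine genes, MET17 was the gene that rose, 1 of 37, and SAM2, a synthase of S-adenosylmethionine, fell by 0.90 ± 0.19 (adjusted p = 0.00875). SAM2 was not shared, at -1.43 ± 0.17 in ∆RPL22A and -0.51 ± 0.16 in ∆RPL22B.

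SHB17 (YKR043C), the sedoheptulose bisphosphatase that feeds ribose synthesis, rose in both deletions. It had CPM values of 33.4, 58.4 and 104 in ∆RPL22A and 28.1, 34.6 and 77.6 in ∆RPL22B, against 3.57, 6.61 and 13.1 in wild type. The lowest deletion library was above the highest wild-type library, and the log2 fold change was 2.80 ± 0.27 (adjusted p = 1.75e-09). In ∆RPL22A it was 3.01 ± 0.25 and in ∆RPL22B 2.52 ± 0.25.

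The difference at SHB17 varied between pools more than at most genes, without passing the test. In monosomes the duplicates were at 43.6 and 33.4 CPM in ∆RPL22A and 28.1 and 36.0 in ∆RPL22B, against 12.5 and 13.1 in wild type. In heavy polysomes they were at 60.6 and 79.6 in ∆RPL22A and 67.0 and 77.6 in ∆RPL22B, against 6.78 and 3.57 in wild type. The wild-type level was thus higher in monosomes than in heavy polysomes, the deletion level lower. Within pools the log2 fold change was 2.92 in input, 1.46 in monosomes, 3.29 in light and 3.79 in heavy polysomes, each called. The interaction of deletion and pool had an unadjusted p of 0.00101, ranked 2 among all genes, and an adjusted p of 1. Of the 10 tested genes on the list of the pentose phosphate pathway and SHB17, none of the other 9 passed, among them TAL1 at -0.24 ± 0.15 and TKL1 at -0.16 ± 0.14, enzymes that handle the same sugar phosphates.

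**Figure D3:**
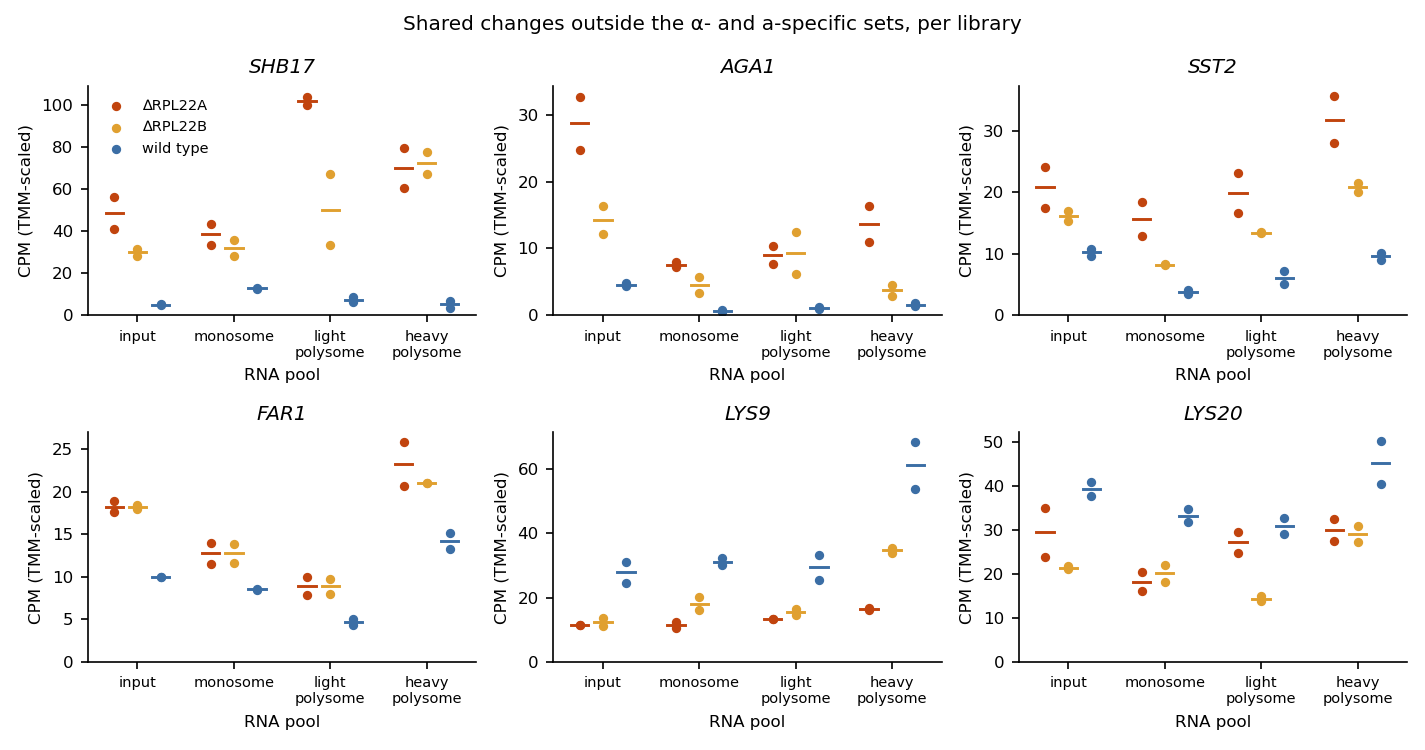
CPM of SHB17, AGA1, SST2, FAR1, LYS9 and LYS20 by RNA pool in ∆RPL22A, ∆RPL22B and wild type, in this order within each pool. Points are single libraries, 2 per group, and bars are their means. SHB17 lies above wild type in every deletion library and LYS9 lies below the wild-type duplicates of the same pool, as does LYS20 except for 1 ∆RPL22A light polysome library, at 29.6 CPM against 32.6 and 29.1 CPM in wild type.

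Genes of the pheromone response rose in part. Of 17 tested pheromone-induced genes, 6 rose (AGA1, FUS1, FUS2, FIG2, KAR4 and PRM5), 1 fell (ASG7, also counted among the a-specific genes) and 10 did not pass. Of all genes tested, 0.539% were higher and 0.502% lower. In ∆RPL22A 12 of the 17 were above 0 and in ∆RPL22B 16, 12 of them in both, against 2537 and 2848 of all 5380 genes tested. In ∆RPL22A 10 were called higher and in ∆RPL22B 2, where 11.9% and 0.297% of all genes tested were higher. The median of the list was 0.72, with 0.94 in ∆RPL22A and 0.46 in ∆RPL22B. AGA1 (YNR044W), the wall anchor of a-agglutinin that both cell types make, had CPM values of 7.2, 10.7 and 32.7 in ∆RPL22A and 2.87, 5.97 and 16.4 in ∆RPL22B, against 0.423, 1.34 and 4.77 in wild type. The groups overlapped across pools, but within each pool every deletion library was above both wild-type libraries, and the log2 fold change was 2.59 ± 0.29 (adjusted p = 8.63e-08).

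FUS1 (YCL027W), a membrane protein of cell fusion, had 304 counts in ∆RPL22A and 151 in ∆RPL22B, against 47 in wild type, and rose by 1.98 ± 0.28 (adjusted p = 1.28e-05). Its window, at chrIII:71611-71654 on the plus strand and ending 149 bases before the start, holds the Ste12 element TGAAACA at 2 places, in capitals.
FUS1: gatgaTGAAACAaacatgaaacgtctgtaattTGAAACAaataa

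The element was found upstream of 14 of 19 pheromone-induced genes, including all 7 that changed, of 8 of 16 genes of the signalling core, of 7 of 7 a-specific and 2 of 5 α-specific genes, and of 722 of all 6021 genes (12%). FIG2, an adhesin, KAR4, a transcription factor of nuclear fusion, PRM5 and FUS2 were called jointly but not in ∆RPL22B alone. For FUS2 the log2 fold change was 2.47 ± 0.58 in ∆RPL22A and 2.03 ± 0.63 in ∆RPL22B (adjusted p = 0.279 in ∆RPL22B). For KAR4 the log2 fold change was 1.75 ± 0.15 in ∆RPL22A and 0.54 ± 0.17 in ∆RPL22B (adjusted p = 0.26 in ∆RPL22B). TEC1, the partner of Ste12 in filamentous growth, rose by 0.96 ± 0.22 (adjusted p = 0.0139) and was likewise not called in ∆RPL22B alone. FUS2 lost its call without any 1 of 10 libraries, with an adjusted p of up to 0.112. TEC1, PRM5 and FUS2 were chosen after their values were seen.

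Of the 16 genes of the signalling core, 2 rose and 0 fell, with a median of 0.19, where 0.539% of all genes tested were higher. In ∆RPL22A 6 of the 16 were called higher and in ∆RPL22B 2. SST2 (YLR452C), which turns off the G protein of the pathway, averaged 22.1 ± 7.31 CPM in ∆RPL22A and 14.7 ± 4.92 in ∆RPL22B, against 7.42 ± 2.94 in wild type (SD, n = 8 each), a rise of 1.30 ± 0.18 (adjusted p = 5.44e-06). FAR1 (YJL157C), which arrests the cell cycle in response to pheromone, rose by 0.75 ± 0.12 (adjusted p = 0.000203), by 0.77 ± 0.13 in ∆RPL22A and 0.73 ± 0.13 in ∆RPL22B. The kinases and transcription factors of the cascade did not pass, with STE11 at -0.12 ± 0.23, STE7 at 0.11 ± 0.24, FUS3 at 0.55 ± 0.22 and STE12 at 0.45 ± 0.21. FUS3 was at 0.97 in ∆RPL22A (adjusted p = 4.54e-06) and at -0.06 in ∆RPL22B.

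**Figure D4:**
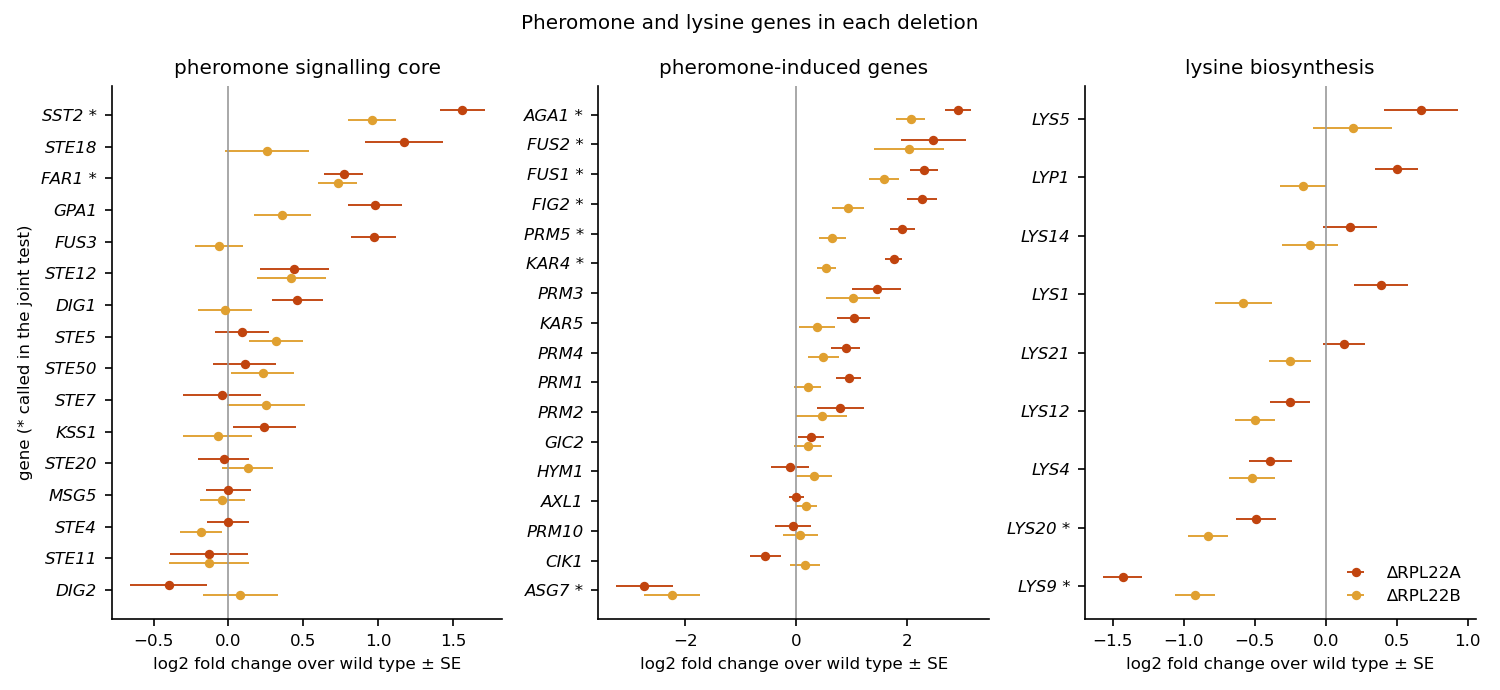
Log2 fold change over wild type, with its SE, of tested genes of the pheromone signalling core, the pheromone-induced list and the lysine pathway (without LYS2, which lies off the scale), in ∆RPL22A and ∆RPL22B. An asterisk marks genes called in the joint test. SST2, FAR1, AGA1 and FUS1 lie above 0 and LYS9 and LYS20 below 0 in both deletions.

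A further 3 of the shared rises lie next to α-specific genes. LIF1 (YGL090W), which works with the DNA ligase of end joining, had 352, 283 and 40 counts in ∆RPL22A, ∆RPL22B and wild type and rose by 2.57 ± 0.29 (adjusted p = 1.11e-07). It ends 206 bases from the end of MF(ALPHA)2, which is transcribed towards it. POS5 (YPL188W), the mitochondrial NADH kinase, had 504, 384 and 122 counts, rose by 1.69 ± 0.22 and lies upstream of MF(ALPHA)1 on the same strand, 997 bases away. NFG1 (YLR042C) had 327, 165 and 45 counts, rose by 2.10 ± 0.26 and lies upstream of AFB1 on the same strand, 383 bases away. In each the deletion and wild-type libraries did not overlap, as in 18 of all 5380 genes tested (0.335%). Whether the counting used strand, and how it treated reads that pass a gene's end, is not stated in these sources. Reads that pass the end of MF(ALPHA)2 would run towards LIF1, and whether any were counted there cannot be told. Reads that pass the end of MF(ALPHA)1 or AFB1 would run away from POS5 and NFG1. The cause of these rises was not tested. On the far side of these pairs the next tested gene did not pass (NBP35 at -0.11 ± 0.17, YGL088W at 0.03 ± 0.26, RIC1 at -0.14 ± 0.22 and TRX1 at 0.15 ± 0.22), and beside POS5 and MF(ALPHA)1 both next genes were counted too low for the test. Of all 56 called genes, 10 have a called gene as immediate neighbour, with both members of a pair counted. The share of all tested genes with a called neighbour was not computed, so this count cannot be judged against it. LIF1, POS5, NFG1, their neighbours, SOM1 and CTP1 were chosen after their values were seen.

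The last 3 shared genes were counted low. SOM1, a subunit of the inner membrane peptidase of mitochondria, had 76, 84 and 22 counts in ∆RPL22A, ∆RPL22B and wild type (1.58 ± 0.35, adjusted p = 0.0105). SPI1, a cell wall protein and the gene that rose among 32 tested general stress genes, had 93, 98 and 35 counts (1.09 ± 0.27, adjusted p = 0.0325). CTP1, the mitochondrial citrate carrier, had 160, 112 and 202 counts and fell by 0.77 ± 0.19 (adjusted p = 0.0317). The groups of each overlapped. SPI1 lost its call without any 1 of 7 libraries, with an adjusted p of up to 0.148: ∆RPL22A monosome replicates 1 and 2, and wild-type input replicate 1, monosome replicates 1 and 2, light polysome replicate 1 and heavy polysome replicate 2. CTP1 lost it without any 1 of 9, with an adjusted p of up to 0.138: ∆RPL22A monosome replicates 1 and 2 and heavy polysome replicate 1, ∆RPL22B monosome replicate 2, and wild-type monosome replicates 1 and 2, light polysome replicates 1 and 2 and heavy polysome replicate 1.

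The shared genes were chosen by their change over the 4 pools, so a like sign in each pool is not separate support. All 26 had the same sign in the 4 pools, as did all 56 jointly called genes. Of the 26, 15 were called within each pool on its own: MF(ALPHA)1, STE3, SAG1, AFB1, MET17, SHB17, AGA1, MFA1, MFA2, STE2, STE6, BAR1, AGA2, HMRA1 and LYS9. Another 6 were called in 1 to 3 pools, and 5 (FAR1, LYS20, SPI1, SOM1 and CTP1) in none. Within pools 37 genes (0.688%) were called in input, 46 (0.855%) in monosomes, of which 30 were lower (0.558%), 43 (0.799%) in light and 40 (0.743%) in heavy polysomes, of which 25 were lower (0.465%). Omission of 1 library moved these counts by over 1.5 times in several cases. The input count was 22 without wild-type input replicate 2. The monosome count was 30 and 27 without ∆RPL22A monosome replicates 1 and 2, 27 without ∆RPL22B monosome replicate 2, 71 without ∆RPL22B light polysome replicate 1, and 18 and 21 without wild-type monosome replicates 1 and 2. The light polysome count was 242 without ∆RPL22B light polysome replicate 2, and 27 and 25 without wild-type light polysome replicates 1 and 2. The heavy polysome count was 63 without either ∆RPL22B light polysome replicate. The interaction of deletion and pool called 0 of 5380 genes in edgeR, with 97 (1.8%) at an unadjusted p under 0.05, and 0 in DESeq2, with 76, and 1 gene in edgeR without ∆RPL22B light polysome replicate 2. With all 24 libraries, no change in the distribution of an mRNA over the pools common to both deletions was detected. The interaction model has no term for strain, so differences between the deletions enter its residual spread. Its 1.8% at an unadjusted p under 0.05 is below the share that this threshold gives when nothing differs. The test was thus conservative, and a missing call says little.

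**Figure D5:**
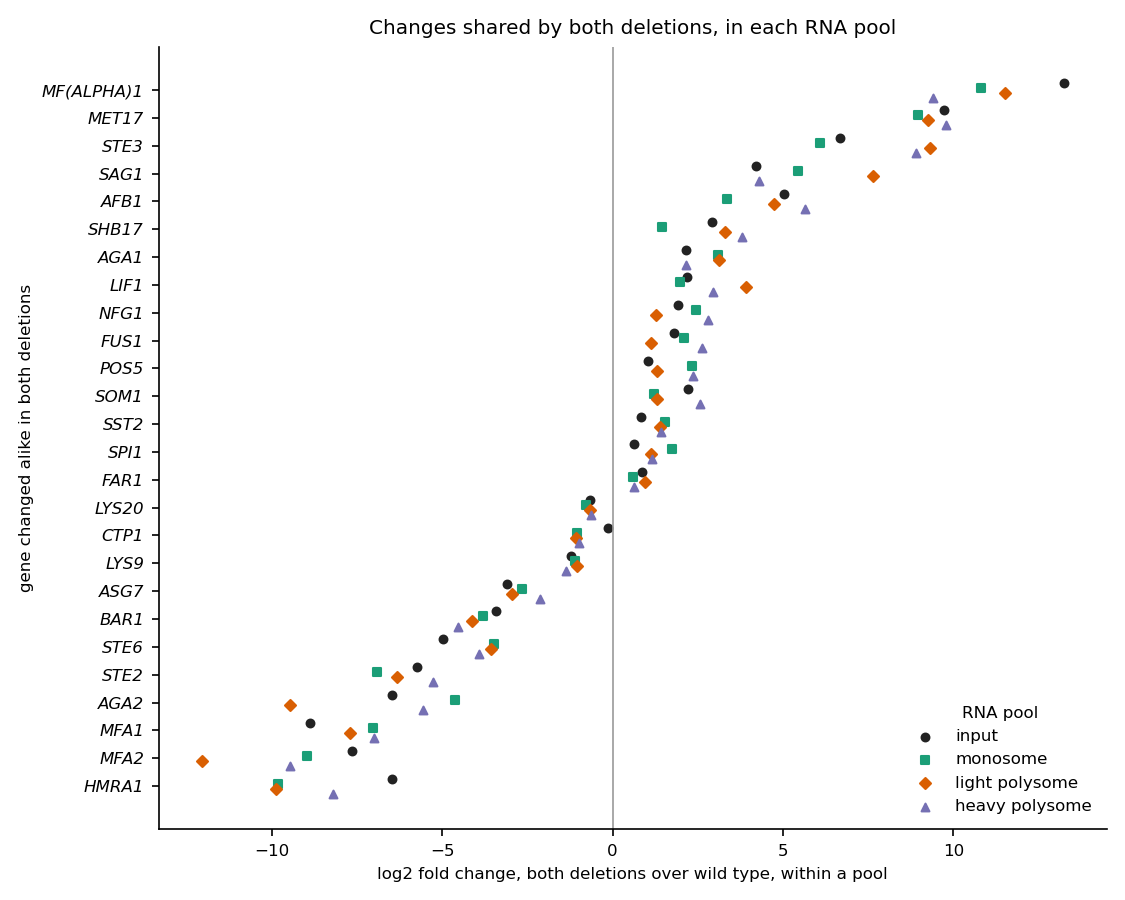
Log2 fold change of both deletions over wild type within input, monosomes, light and heavy polysomes, for the 26 shared genes ordered by their change over all pools. Each symbol is a contrast of 4 deletion libraries with 2 wild-type libraries. All symbols of a gene lie on 1 side of 0, and the spread at both ends belongs to genes with few or no counts in 1 of the groups, whose fitted folds depend on the prior count.

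The 4 pools of a replicate may come from 1 culture, which the labels do not say. When the counts of each strain and replicate number were summed over the pools, leaving 4 deletion sums and 2 wild-type sums, 21 genes (0.39%) were called, 19 of them shared and the other 2 LYS2 and MF(ALPHA)2. The 7 shared genes that did not pass on the sums were SST2 (adjusted p = 0.126), FUS1 (0.0828), FAR1 (0.388), LYS20 (0.685), SPI1 (0.45), SOM1 (0.287) and CTP1 (0.45). The p-values over single libraries measure the spread between libraries. In bulk RNA of this kind, fewer cells that express a gene and less RNA per cell cannot be told apart.

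The 30 called genes that were not shared were mostly larger in ∆RPL22A. In 28 of them the change was wider in ∆RPL22A than in ∆RPL22B, and in 22 the difference between the deletions passed the test. Of all genes tested, 12.6% were higher and 13.7% lower in ∆RPL22A than in ∆RPL22B by that test. All 56 jointly called genes were called in ∆RPL22A, and 27 of them were not called in ∆RPL22B and so could not be shared. The counts of 28 and 22 therefore largely follow from the sharing rule and are not a separate result. The 30 comprised 14 higher and 16 lower genes. Those of the arginine pathway are an example, ARG4 and ARG56 among them: 10 of 11 rose in ∆RPL22A, where 11.9% of all genes tested were higher, and the median over the list was 1.12 in ∆RPL22A and 0.02 in ∆RPL22B. ARG4, the last enzyme of the pathway, averaged 26.8 ± 4.77 CPM in ∆RPL22A and 7.21 ± 1.27 in ∆RPL22B, against 6.43 ± 1.55 in wild type (SD, n = 8 each). Its joint fold of 1.43 ± 0.35 (adjusted p = 0.0263) stands beside 2.08 ± 0.16 in ∆RPL22A and 0.20 ± 0.17 in ∆RPL22B. FIT1, a cell wall protein of iron uptake, fell by 1.64 ± 0.30 jointly, at -2.42 ± 0.30 in ∆RPL22A and -1.05 ± 0.27 in ∆RPL22B (adjusted p = 0.0566 in ∆RPL22B). PHO12, an acid phosphatase, fell by 1.07 ± 0.27, at -2.06 ± 0.17 in ∆RPL22A and -0.47 ± 0.16 in ∆RPL22B. AQY2, an aquaporin gene called in both deletions, was at -2.64 ± 0.33 and -1.29 ± 0.30 and overlaps its called neighbour YLL053C; both were chosen after their values were seen. The call was lost without any 1 of 8 libraries for ARG4, 16 for ARG56 and 12 for PHO12, with adjusted p of up to 0.086, 0.142 and 0.102.

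In gene groups close to the function of Rpl22, and in the other lists given here, no gene passed the joint test. That test called 1.04% of all genes tested, so counts of 0 in lists of this size are near that share. Of 78 tested genes for proteins of the large ribosomal subunit 0 passed, with a median of -0.02, and of 57 for the small subunit 0 passed, with a median of -0.06. RPL22B itself was at 0.84 ± 0.89 jointly (adjusted p = 0.722), the balance of a rise in ∆RPL22A and its absence in ∆RPL22B, and its direction turns to -4.36 in a model of 12 separate group means. Of 41 assembly factors of the large subunit 0 passed, with a median of 0.38, and 38 of the 41 were above 0, against 2739 of all 5380 genes. In ∆RPL22A 27 of them rose, with a median of 0.67, where 11.9% of all genes tested were higher. In ∆RPL22B 0 rose and 8 were above 0, with a median of -0.09. Of 32 oxidative stress genes 0 passed, with a median of 0.01, and of 24 genes of glycolysis and fermentation 0 passed, with a median of -0.23. The genes for uracil (12), leucine (12) and histidine (8) synthesis held no call either. The 10 widely used reference genes ranged from -0.34 to 0.35 and none passed.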

How the data were processed

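The authors deposited read counts per gene, as whole numbers, in a table of 24 libraries and 6369 rows, of which 5908 matched the RefSeq R64 annotation by systematic name. The molecule is polyA RNA per the labels. The submitters' processing notes list the build sacCer3 and the tools RSEM 1.2.18, SAMtools 0.1.19 and cutadapt 1.4 without their roles. The counter and its use of strand are not given in the sources used here. Columns assigned to no sample numbered 0.

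Rows were kept by filterByExpr on the 12 groups (minimum count 10, minimum total 15), scaled by TMM and tested with edgeR 4.0.16 (R 4.3.3) by quasi-likelihood, with pool and deletion as factors and 19 residual degrees of freedom, at an adjusted p of 0.05 (Benjamini-Hochberg over 5380 genes). Each deletion and their difference were tested by quasi-likelihood with strain in place of deletion. The interaction was tested in a model of pool, deletion and their interaction, and the contrasts within pools in a model of the 12 groups. SE is taken as the size of the log2 fold change over the root of the F statistic. One-sided ratios use a group floor of 3 counts or an exact 95% interval.

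The genes, lists and motifs were chosen with earlier results of these data known. Named by rule were the targeted genes and the members of the mating-type and marker lists, up to 15 shared rises and 15 shared falls with a mean of at least 10 CPM, up to 4 called members of each other list, up to 10 genes of smallest interaction p, and the nearest 2 genes on each side of the targeted genes, MET17, LYS2, HIS3, LEU2, URA3 and one-sided genes. The test was tried on simulated counts. DESeq2 1.42.0, limma 3.58.1 voom, other scalings, no filter, sums over pools, a replicate block and omission of libraries were alternatives. Results of some list members are not reported here.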

Additional observations from a re-analysis of the deposited data

Results flagged for a closer look

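The jointly called genes, with RPL22B and HIS3 added, were looked at for a difference between the deletions, and other genes were not. Among those reported here the difference passed the test for 30, of which 28 were jointly called. Of all 5380 genes tested, 1416 (26.3%) passed it. The values are log2 fold changes of ∆RPL22A over ∆RPL22B (edgeR, adjusted over all genes), positive where ∆RPL22A was higher. RPL22B, missing in 1 of the strains, differed by 12.41. Among the mating-type and pheromone genes, α-factor gene MF(ALPHA)2 was at -1.12, STE3 at 0.43 and AFB1 at 0.63. AGA1 was at 0.85, SST2 at 0.60, FUS1 at 0.72, KAR4 at 1.21, FIG2 at 1.34 and PRM5 at 1.26. NFG1, beside AFB1, was at 0.73. Of these, STE3, AFB1, AGA1, SST2, FUS1 and NFG1 belong to the shared genes, as does LYS9 at -0.51, and all 7 were called in both deletions.

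Genes of amino acid pathways in this set were HIS3 at 1.43, ARG4 at 1.88, ARG56 at 1.49 and SAM2 at -0.92. Genes of the cell surface and transport were TIP1 at 0.62, FIT1 at -1.37, PHO12 at -1.59, the polyamine exporter TPO4 at -1.59, the ammonium permease MEP3 at -0.50, AQY2 at -1.34 and the overlapping YLL053C at -1.23. The others were ANB1, a translation factor gene expressed at low oxygen, at -1.44, the IMP dehydrogenase gene IMD2 at -1.18, EFM3 at -0.94, NNK1 at -0.79, MOG1 at -0.49, CAF16 at 1.13 and SPC3 at 0.70.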

How the results depend on the processing

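Of 26 shared genes, 18 passed the joint test under each of 43 alternatives, among them SHB17, LYS9, AGA1 and the mating-type genes except ASG7, and the shared count stayed between 19 and 29. The joint count of 56 was 58 with relative log expression scaling, 57 without the ribosomal DNA rows, 68 without a filter on low counts and 75 in DESeq2. It was 21 on counts summed over pools, 37 in limma voom with correlated libraries, 298 in a model of 12 separate group means, 35 without the input pool and 29 without the monosome pool. Leaving out 1 library gave 42 to 97 genes, and leaving out all pools of 1 replicate gave 33 and 34 (∆RPL22A replicates 1 and 2), 294 and 140 (∆RPL22B) and 26 and 30 (wild type). The cause was not tested. Leaving out 1 library gave 1047 to 1353 genes in ∆RPL22A, 27 to 33 in ∆RPL22B, 1174 to 1438 between the deletions, and 0 to 1 in the interaction. Within pools it gave 22 to 45 in input, 18 to 71 in monosomes, 25 to 242 in light and 28 to 63 in heavy polysomes. RPL22B, at 0.84 jointly and not called, was at -4.36 and called in the 12-group model, whose contrast averages log values over both deletions. The share of higher genes in the joint count was 51.8%. It was 40.5% in limma voom, 62.5% without the light polysome pool, 63.9% without ∆RPL22B light polysome replicate 1 and 66.7% without all pools of ∆RPL22B replicate 1.

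Deviations of same-numbered libraries of a pool correlated between strains at -0.401 to 0.122, and those of a strain between pools at -0.253 to 0.209. Same-numbered libraries that shared neither strain nor pool ranged as widely, from -0.324 to 0.302. These values therefore cannot decide whether libraries of the same number share a culture or batch. With a replicate block 55 genes were called jointly and 26 were shared. Alternatives were planned except the omission of the 4 libraries nearly as close to another pool as to their duplicate, chosen after seeing the data (58 genes). Intervals cover counting error only, and 314212 counts in the smallest library limit low genes.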

Other observations

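GYP8, a gene for a regulator of vesicle traffic whose upstream region is shared with STE2, carries the Mcm1 core and the α2 site in its window and was chosen after its values were seen. It was called in ∆RPL22B alone (-1.21 ± 0.30, adjusted p = 0.0497), at -0.64 ± 0.27 in ∆RPL22A (adjusted p = 0.0863) and at -0.86 ± 0.27 jointly (adjusted p = 0.136, edgeR). FKS3, the other gene outside the a-specific set with both motifs, was at -0.29 ± 0.27 jointly (adjusted p = 0.673). Besides GYP8, RPL22B was the gene called in ∆RPL22B but not in the joint test, since 29 of the 31 genes called in ∆RPL22B were also called jointly.

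The list of general stress genes had a median of -1.10 in ∆RPL22A, with 21 of 32 lower (11.6% of all genes tested were lower in ∆RPL22A), against 0.07 in ∆RPL22B, and of the 22 tested genes of the phosphate regulon 9 were lower in ∆RPL22A, with medians of -0.45 in ∆RPL22A and 0.01 in ∆RPL22B. The genes of leucine synthesis had a median of 0.85 in ∆RPL22A, with 9 of 12 higher (11.9% of all genes tested were higher in ∆RPL22A), against -0.13 in ∆RPL22B.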
